A study of Mus musculus with 18 samples.

Results

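Agt, Atp6v0a4, Thbs2, Cd244a and Ppp1r16b were the genes whose response to the CDK8/CDK19 inhibitor Senexin B (SnxB) differed by more than 2-fold between a Cdk8 knockdown line and the control line (adjusted p under 0.05). They are 5 of the 50686 genes in the count files, and all 5 were among the 12772 genes with enough counts to be tested. They were chosen by the difference between the SnxB effect in a Cdk8 knockdown line and the SnxB effect in the control line. Values that enter this difference are therefore given as a description, without a test. Agt, Atp6v0a4, Thbs2 and Cd244a were higher with SnxB in control cells, were higher still in the knockdown lines in DMSO, and there had a smaller or opposite difference with SnxB. Ppp1r16b went the other way, being lower in the knockdown lines in DMSO and higher with SnxB in these lines, but not in control cells.

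CDK8 and its paralog CDK19 are the kinases of the Mediator complex, which links transcription factors to RNA polymerase II. The kinase module can raise or lower transcription, and part of its action on genes does not need kinase activity. An inhibitor of both kinases and a knockdown of CDK8 protein are thus different interventions. Agt encodes angiotensinogen, the precursor of the angiotensin peptides, which is best known as a liver protein. Atp6v0a4 encodes the a4 subunit of the proton pump V-ATPase, typical of the acid-secreting cells of the kidney. Thbs2 encodes thrombospondin-2, a secreted matrix glycoprotein that inhibits blood vessel growth. Cd244a encodes 2B4, a receptor of the SLAM family on natural killer cells. Ppp1r16b encodes TIMAP, a membrane-bound regulatory subunit of protein phosphatase 1 that is abundant in endothelial cells.

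All 18 libraries were RNA-seq of E0771, a mouse cell line of triple-negative breast cancer, that carried a lentiviral firefly luciferase gene under the CMV promoter and was selected with puromycin. On this background a retroviral LENC vector with an mCherry marker brought in a hairpin against Renilla luciferase (cntrl) or 1 of 2 hairpins against Cdk8 (shCdk8-1 and shCdk8-2), and cells were sorted on mCherry. Each of the 3 lines received DMSO or 1 µM SnxB over 48 h, with 3 libraries for each of the 6 groups. Each hairpin, the control hairpin included, was present as 1 line, so a difference between lines and the effect of a knockdown cannot be told apart. What both Cdk8 hairpins share is measured against the same cntrl line, so a trait of that line cannot be told apart from it either.

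Library totals ran from 16452260 to 22664693 counts (median 19029320). Levels are given as CPM, the counts scaled to library size with TMM factors, and 3 counts in a library corresponded to 0.131 to 0.185 CPM. Cdk8 was at 54.8 to 58.6 CPM in the cntrl DMSO libraries, 18.7 to 23.4 CPM in those of shCdk8-1 and 38.5 to 39.2 CPM in those of shCdk8-2, and it was lower than in cntrl in every knockdown library of either treatment. Cdk19 was higher than in cntrl by a log2 difference of 0.42 in shCdk8-1 and 0.17 in shCdk8-2, averaged over treatments. Cdk8 did not pass the test for SnxB in cntrl (log2 difference -0.03, edgeR's quasi-likelihood test, adjusted p = 0.887). For shCdk8-2 the count files carry replicate numbers 2, 3 and 3 where the labels have 1, 2 and 3, and the calls of the members in this line were therefore repeated without each of its libraries. Nothing in the labels says that the 3 libraries of a group came from separate cultures, so p-values measure the spread between libraries, which may be technical. Of 6 mesenchymal markers, Vim was at a mean of 4431 CPM in cntrl DMSO and S100a4, Zeb1 and Twist1 were also tested, while Fn1 and Cdh2 had at most 3 counts in every library. Of 6 epithelial markers, Krt18, Krt19 and Cldn4 had at most 3 counts in every library, Epcam and Cdh1 reached 8 and 17 counts, and Krt8 was at means of 7.08 to 13 CPM in the knockdown lines. In bulk RNA, fewer expressing cells and less RNA per cell cannot be told apart.

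The 250 bases before the RefSeq start site of the 4 genes that moved in the same direction are shown so that the regions upstream of these members can be compared. They are from GRCm38.p6, read 5′ to 3′ on the strand of the gene, at chr8:124569707-124569956 (minus strand) for Agt, chr6:38124587-38124836 (minus strand) for Atp6v0a4, chr17:14694263-14694512 (minus strand) for Thbs2 and chr1:171558943-171559192 (plus strand) for Cd244a. Capitals mark matches, on either strand, to 6 motifs: the TATA box (TATAAA), the CCAAT box (CCAAT), the GC box (GGGCGG), the AP-1 site (TGANTCA), the STAT site (TTCNNNGAA) and the E-box (CACGTG).
Agt: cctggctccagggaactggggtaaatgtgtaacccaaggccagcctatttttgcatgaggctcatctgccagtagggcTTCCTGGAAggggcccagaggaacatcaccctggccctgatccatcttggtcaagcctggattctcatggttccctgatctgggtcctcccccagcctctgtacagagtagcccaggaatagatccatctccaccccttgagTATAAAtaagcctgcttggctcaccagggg
Atp6v0a4: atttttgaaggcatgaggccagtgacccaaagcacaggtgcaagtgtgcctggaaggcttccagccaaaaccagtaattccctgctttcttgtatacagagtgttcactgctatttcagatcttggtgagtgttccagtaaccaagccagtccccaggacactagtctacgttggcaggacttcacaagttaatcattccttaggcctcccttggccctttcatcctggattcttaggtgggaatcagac
Thbs2: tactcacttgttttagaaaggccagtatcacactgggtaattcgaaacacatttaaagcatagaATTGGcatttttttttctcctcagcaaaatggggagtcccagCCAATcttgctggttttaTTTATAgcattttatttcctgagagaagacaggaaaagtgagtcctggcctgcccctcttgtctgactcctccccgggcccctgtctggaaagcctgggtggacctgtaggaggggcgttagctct
Cd244a: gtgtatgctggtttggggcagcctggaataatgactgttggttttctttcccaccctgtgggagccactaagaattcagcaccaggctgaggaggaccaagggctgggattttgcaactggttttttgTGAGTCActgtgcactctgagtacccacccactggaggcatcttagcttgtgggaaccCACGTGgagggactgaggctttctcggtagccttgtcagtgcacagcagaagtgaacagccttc

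Agt held the TATA box at positions -30 to -25, counted from -1 as the last base before the start, and a STAT site at -172 to -164. Thbs2 held the TATA box on the other strand at -126 to -121 and CCAAT boxes at -186 to -182 (other strand) and -144 to -140. Cd244a held an AP-1 site at -122 to -116 and an E-box at -64 to -59, and Atp6v0a4 held none of the 6 motifs. No motif was common to the 4 windows. Among 32851 such windows in the RefSeq promoter table, 12.4% held the TATA box, 33.8% the CCAAT box, 32.7% the GC box, 6.75% the AP-1 site, 7.02% the STAT site and 6.02% the E-box. No match in these windows overlapped another.

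Agt (ENSMUSG00000031980.9) spans chromosome 8 from 124556534 to 124569706 on the minus strand of GRCm38, with 1891 exon bases in 5 blocks. In cntrl cells its level was 1.48, 1.3 and 0.833 CPM in DMSO and 4.15, 2.78 and 4.41 CPM in SnxB. In shCdk8-1 cells it was 16.6, 17.5 and 15.6 CPM in DMSO and 22.7, 23 and 23.1 CPM in SnxB. In shCdk8-2 cells it was 13, 12.1 and 13.5 CPM in DMSO and 20.6, 19.8 and 18.1 CPM in SnxB. All 6 groups were separate from their neighbors in the order of levels, with the cntrl groups at the bottom and both knockdown lines in SnxB at the top. SnxB raised the cntrl mean from 1.2 ± 0.334 to 3.78 ± 0.874 CPM (SD, n = 3), which brought it to 22.8% of the shCdk8-1 level in DMSO. The 17 to 24 counts of the cntrl DMSO libraries are the least precise values of this gene.

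Atp6v0a4 (ENSMUSG00000038600.12) lies on the minus strand of chromosome 6, bases 38048483 to 38124586 of GRCm38, with 4973 exon bases. Its cntrl levels were 0.739, 0.759 and 0.784 CPM in DMSO and 2.84, 2.46 and 2.97 CPM in SnxB. Its shCdk8-1 levels were 6.11, 7.52 and 7.28 CPM in DMSO and 7.74, 8.98 and 8.89 CPM in SnxB. Its shCdk8-2 levels were 3.74, 3.98 and 3.29 CPM in DMSO and 4.29, 5.24 and 4.96 CPM in SnxB. No neighboring groups in the order overlapped, and the lines kept the order cntrl, shCdk8-2, shCdk8-1 in both DMSO and SnxB. In SnxB the cntrl mean reached 39.6% of the shCdk8-1 level in DMSO and 75.1% of the shCdk8-2 level in DMSO, against 22.8% and 29.4% for Agt. D630045J12Rik, on the same strand, shares 259 exon bases with Atp6v0a4, and reads in such a stretch were assigned to neither gene.

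Thbs2 (ENSMUSG00000023885.8) is at 14665500 to 14694262 on the minus strand of chromosome 17 (GRCm38), with 5922 exon bases in 22 blocks. In cntrl cells its level was 1.6, 2.82 and 2.16 CPM in DMSO and 5.41, 3.94 and 4.51 CPM in SnxB. In shCdk8-1 cells it was 72.1, 77.8 and 72.5 CPM in DMSO and 71.7, 63 and 68.2 CPM in SnxB. In shCdk8-2 cells it was 59.6, 57.4 and 57.5 CPM in DMSO and 65.9, 61.6 and 61.8 CPM in SnxB. The 4 knockdown groups lay within 57.4 to 77.8 CPM, and every cntrl library was at or below 5.41 CPM. SnxB moved the cntrl mean from 2.19 ± 0.61 to 4.62 ± 0.74 CPM (SD, n = 3), and this was still 6.23% of the shCdk8-1 level in DMSO. The shCdk8-2 and shCdk8-1 libraries overlapped in SnxB.

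Cd244a (ENSMUSG00000004709.14) occupies the plus strand of chromosome 1 between 171559193 and 171609746 in GRCm38, with 4876 exon bases. Its cntrl levels were 0.739, 0.379 and 0.931 CPM in DMSO and 1.53, 1.21 and 1.44 CPM in SnxB. Its shCdk8-1 levels were 3.1, 2.68 and 2.79 CPM in DMSO and 1.67, 1.9 and 1.75 CPM in SnxB. Its shCdk8-2 levels were 2.39, 1.94 and 1.64 CPM in DMSO and 1.97, 1.99 and 1.89 CPM in SnxB. With SnxB the 3 lines came closer, at means between 1.39 and 1.95 CPM, because the cntrl libraries were higher and the shCdk8-1 libraries lower than in DMSO. Every knockdown library (1.64 CPM or more) was still above every cntrl library (1.53 CPM or less). The shCdk8-2 libraries in SnxB overlapped those in DMSO. This was the sparsest member, with a lowest count of 7 in the second cntrl DMSO library, for which the exact Poisson 95% interval is 2.81 to 14.4 counts (counting error only). Ly9, another SLAM gene, runs through the same interval on the opposite strand and shares 0 exon bases with Cd244a.

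Ppp1r16b (ENSMUSG00000037754.13) extends over 158665398 to 158766334 on the plus strand of chromosome 2 (GRCm38), with 8844 exon bases in 13 blocks. In cntrl cells its level was 4.19, 3.52 and 2.74 CPM in DMSO and 2.41, 2.41 and 2.56 CPM in SnxB. In shCdk8-1 cells it was 1.74, 1.99 and 1.91 CPM in DMSO and 3.6, 4.28 and 3.91 CPM in SnxB. In shCdk8-2 cells it was 0.827, 0.97 and 1.04 CPM in DMSO and 2.81, 1.54 and 2.19 CPM in SnxB. Thus, in DMSO the order was cntrl, shCdk8-1, shCdk8-2 from high to low, without overlap between these groups. In SnxB the order was shCdk8-1, cntrl, shCdk8-2, and the cntrl and shCdk8-2 libraries overlapped. The SD was largest in cntrl DMSO (0.723 CPM) and next in shCdk8-2 in SnxB (0.636 CPM, from 27 to 57 counts).

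**Figure D1:**
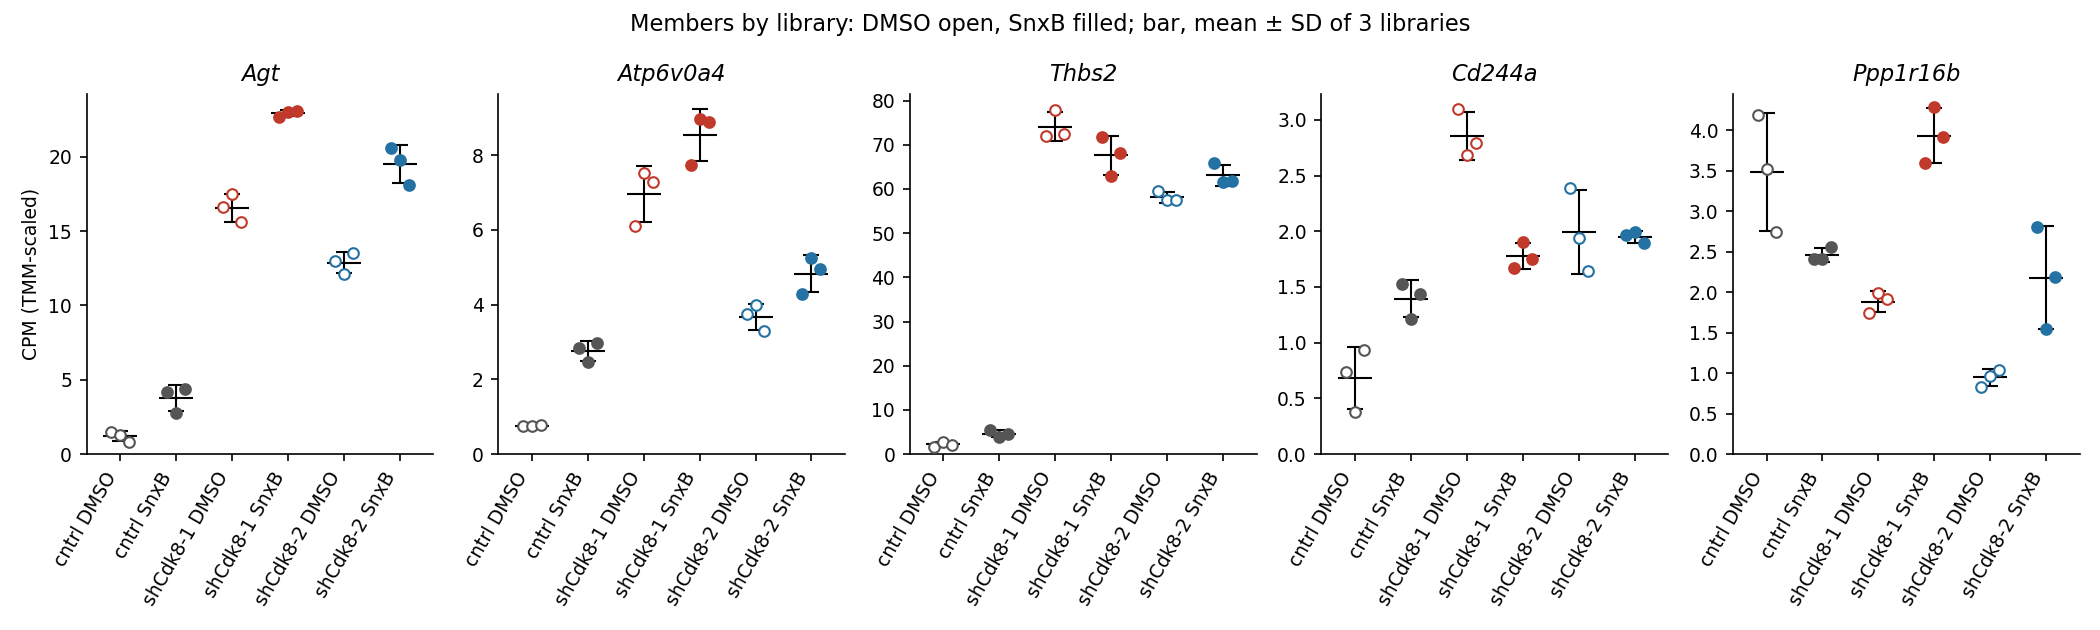
TMM-scaled CPM of each member in each of the 18 libraries, 1 panel per gene with its own axis from 0. Open points are DMSO and filled points SnxB libraries, colored by line, and bars give the mean ± SD of 3 libraries. Every knockdown library of Agt, Atp6v0a4, Thbs2 and Cd244a sits above all cntrl libraries. The cntrl and shCdk8-1 groups of Cd244a approach each other in SnxB, and Ppp1r16b is highest in shCdk8-1 in SnxB and in cntrl in DMSO.

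Per kilobase of exon, which allows levels to be compared between genes, cntrl DMSO cells held 0.637 CPM of Agt, 0.394 of Ppp1r16b, 0.37 of Thbs2, 0.153 of Atp6v0a4 and 0.14 of Cd244a. In shCdk8-1 cells in DMSO the corresponding levels were 12.5 CPM per kilobase of Thbs2, 8.77 of Agt, 1.4 of Atp6v0a4, 0.586 of Cd244a and 0.213 of Ppp1r16b. By these means, Thbs2 moved from the third place to the first, and Ppp1r16b from the second place to the last. Their cntrl DMSO libraries overlapped, at 0.27 to 0.476 CPM per kilobase for Thbs2 and 0.31 to 0.474 for Ppp1r16b. Their order in cntrl DMSO is thus not resolved.

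Standard errors here come from the fit over all 18 libraries, so they are not the spread of 3 libraries against 3 alone. The SnxB effect in each line, as a log2 difference between SnxB and DMSO (± standard error), shows how the members were chosen. For Agt it was 1.66 ± 0.198 in cntrl, 0.47 ± 0.0941 in shCdk8-1 and 0.60 ± 0.0979 in shCdk8-2. For Atp6v0a4 it was 1.84 ± 0.193 in cntrl, 0.30 ± 0.102 in shCdk8-1 and 0.39 ± 0.124 in shCdk8-2. These 2 genes kept an effect of the same sign in all 3 lines, but a smaller one in the knockdown lines. For Thbs2 it was 1.05 ± 0.161 in cntrl, -0.13 ± 0.0642 in shCdk8-1 and 0.12 ± 0.0653 in shCdk8-2. For Cd244a it was 1.00 ± 0.253 in cntrl, -0.69 ± 0.182 in shCdk8-1 and -0.05 ± 0.188 in shCdk8-2. For Ppp1r16b it was -0.49 ± 0.176 in cntrl, 1.06 ± 0.182 in shCdk8-1 and 1.22 ± 0.231 in shCdk8-2. Ppp1r16b and Cd244a in both knockdown lines and Thbs2 in shCdk8-1 had the opposite sign to cntrl, with Cd244a in shCdk8-2 within 1 standard error of 0. The Ppp1r16b effect in shCdk8-2 was 0.88 without replicate 1 of this line in both treatments and 1.45 without replicate 2.

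**Figure D2:**
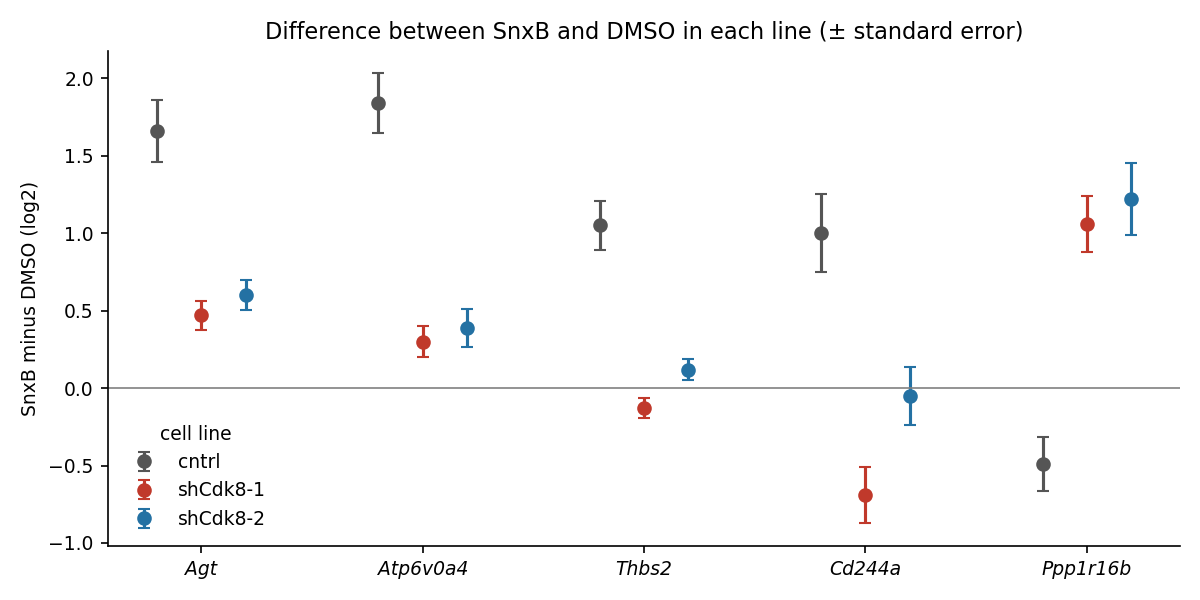
Log2 difference between SnxB and DMSO for each member in cntrl, shCdk8-1 and shCdk8-2 cells, with bars of 1 standard error. The values for cntrl lie at 1.00 to 1.84 for 4 genes and at -0.49 for Ppp1r16b. Those for both knockdown lines lie below the cntrl value for these 4 genes and above it for Ppp1r16b.

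The difference between these effects, shCdk8-1 minus cntrl, was -1.19 ± 0.223 for Agt, -1.54 ± 0.223 for Atp6v0a4, -1.18 ± 0.173 for Thbs2, -1.69 ± 0.311 for Cd244a and 1.55 ± 0.254 for Ppp1r16b (log2, ± standard error). For shCdk8-2 minus cntrl it was -1.06 ± 0.226, -1.46 ± 0.235, -0.93 ± 0.174, -1.04 ± 0.316 and 1.71 ± 0.291 in the same order. Both columns subtract the same cntrl libraries and are not independent of each other. At an adjusted p under 0.05 and more than 2-fold, the test called 5 of 12772 genes (0.0391%) for shCdk8-1, which are the 5 members, and 2 genes (0.0157%) for shCdk8-2, which are Atp6v0a4 and Ppp1r16b. At the adjusted p alone it called 39 genes (0.305%) and 7 genes (0.0548%). Since these contrasts chose the members, nothing is read from the counts. The members nearest the 2-fold limit for shCdk8-1 were Thbs2 at -1.18 and Agt at -1.19, and the nearest genes outside it among those that passed the adjusted p were Ccl7 at -0.89 ± 0.127 and Kctd14 at -0.89 ± 0.136. SnxB in cntrl called 39 genes (0.305%), 3 of them members (Agt, Atp6v0a4 and Thbs2), which is again part of the choice.

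For Agt, Atp6v0a4, Thbs2 and Cd244a these differences rest on low cntrl DMSO counts. Atp6v0a4 had 12 to 16 counts there, against 17 to 24 for Agt and 26 to 52 for Thbs2. Leaving out single libraries moved the differences of Agt, Thbs2 and Cd244a. Those of Atp6v0a4 stayed at -1.63 to -1.47 for shCdk8-1 and -1.54 to -1.36 for shCdk8-2. Its 3 cntrl DMSO libraries lay close together, at 0.739 to 0.784 CPM. Without cntrl DMSO replicate 2, the Cd244a difference was -1.41 for shCdk8-1 and -0.75 for shCdk8-2, and without replicate 3 it was -2.02 and -1.37. Without cntrl DMSO replicate 3, the Agt difference was -0.97 and -0.83. Without cntrl DMSO replicate 2, the Thbs2 difference was -1.40 and -1.14. For Ppp1r16b the shCdk8-2 difference was 1.37 without shCdk8-2 replicate 1 in both treatments and 1.94 without replicate 2. In none of these did a difference change its sign.

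Whether the lines differed on average over treatments was tested on the mean of the differences in DMSO and in SnxB. In a balanced design this mean is orthogonal to the contrast that chose the members, but it uses the same libraries, and the low cntrl DMSO counts are the noisier ones, so it is not fully independent. Thbs2 rose most, by a log2 difference of 4.47 (standard error 0.0697, 22.2-fold, edgeR quasi-likelihood adjusted p = 2.79e-21) in shCdk8-1 and 4.25 (standard error 0.0705, 19-fold, adjusted p = 2.12e-20) in shCdk8-2. Agt rose by 3.21 (9.23-fold, adjusted p = 8.03e-17) and 2.91 (7.51-fold, adjusted p = 9.37e-16). Atp6v0a4 rose by 2.40 (5.29-fold, adjusted p = 1.90e-14) and 1.53 (2.9-fold, adjusted p = 2.10e-10). For each of these 3 genes all 12 knockdown libraries were higher than all cntrl libraries of the same treatment, and no alternative ended a call.

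Cd244a rose by 1.20 (2.3-fold, adjusted p = 7.10e-07) in shCdk8-1 and by 1.02 (2.02-fold, adjusted p = 8.11e-06) in shCdk8-2. These are means of 2.05 in DMSO and 0.35 in SnxB for shCdk8-1 and of 1.54 and 0.50 for shCdk8-2, so most of the difference was in DMSO. The shCdk8-2 value stood just above 2-fold and fell below it without cntrl DMSO replicate 2 (0.87), cntrl SnxB replicate 2 (0.96) or shCdk8-2 DMSO replicate 1 (0.93), and without shCdk8-2 replicate 1 in both treatments (0.92). Ppp1r16b fell by 1.01 on the log2 scale in shCdk8-2 (2.02-fold lower, adjusted p = 3.23e-06), the mean of -1.87 in DMSO and -0.16 in SnxB, and this difference was also under 2-fold without cntrl DMSO replicate 1 (-0.95), cntrl SnxB replicate 3 (-0.99), shCdk8-2 DMSO replicate 1 (-0.97) or shCdk8-2 SnxB replicate 2 (-0.91), and without shCdk8-2 replicate 2 in both treatments (-0.93). In all these fits the adjusted p stayed at or below 1.49e-04. In shCdk8-1, Ppp1r16b was at -0.10 (95% interval -0.38 to 0.18, adjusted p = 0.494), the average of -0.88 in DMSO and 0.67 in SnxB.

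In all, 4 of 5 members were called for shCdk8-1, where 1618 of 12772 genes (12.7%) were called, and 5 of 5 for shCdk8-2, where 1384 genes (10.8%) were called. The members were chosen on the same libraries, so these counts are not read as an enrichment. The direct comparison of shCdk8-2 with shCdk8-1 called 308 genes (2.41%) and no member. At the adjusted p alone, which 34.4% of all genes passed, it separated Atp6v0a4 (log2 difference -0.87, adjusted p = 4.84e-08), Ppp1r16b (-0.91, adjusted p = 6.84e-05), Thbs2 (-0.22, adjusted p = 6.95e-04) and Agt (-0.30, adjusted p = 0.00182), all lower in shCdk8-2. Ppp1r16b passed 2-fold here without shCdk8-2 SnxB replicate 1 (-1.04). For Cd244a the difference between the lines was -0.18 (95% interval -0.47 to 0.10, adjusted p = 0.318). Cdk8 itself was higher in shCdk8-2 than in shCdk8-1 (log2 difference 0.81, adjusted p = 5.38e-10), and its part in these differences was not tested.

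**Figure D3:**
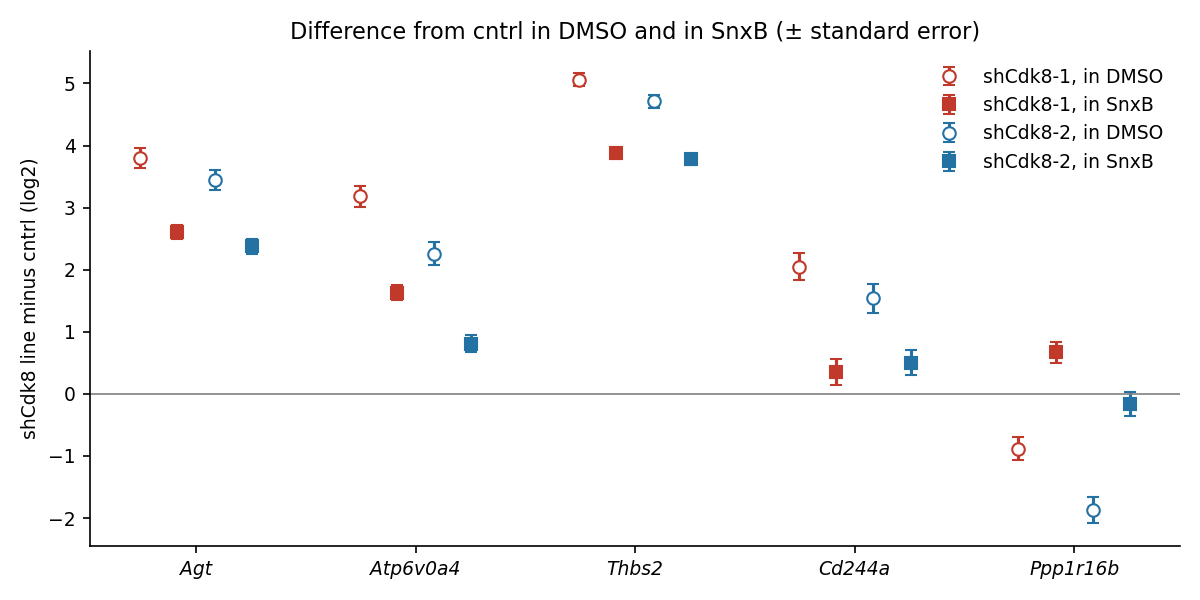
Log2 difference of each knockdown line from cntrl in DMSO (open circles) and in SnxB (filled squares) for the 5 members, with bars of 1 standard error. For Agt, Atp6v0a4, Thbs2 and Cd244a each difference in SnxB lies below that in DMSO but above 0, and for Ppp1r16b it lies above that in DMSO.

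The other genes of the pathway or family of each member were listed to describe them beside it. Over all genes, 69% passed the adjusted p for shCdk8-1 and 66.9% for shCdk8-2, the shares against which the counts here are to be read. Of 22 other genes of the renin-angiotensin system, 12 were tested and 8 had no count in any library, among them the enzyme renin (Ren1) and the receptors Agtr1a, Agtr1b and Agtr2. In shCdk8-1, 7 of the 12 rose and 5 fell at the adjusted p, and only Ace, the angiotensin-converting enzyme, passed 2-fold. Ace was at 14 to 20 counts in cntrl DMSO, 3 to 8 in cntrl SnxB and 0 to 4 in the shCdk8-1 libraries. In shCdk8-2, 5 rose, 5 fell and none passed 2-fold. The peptidases Rnpep (0.75 and 0.49) and Anpep (0.55 and 0.73) rose in both lines, while Agtrap, which binds the angiotensin receptor, fell (-0.62 and -0.39). The median log2 difference of the 12 was 0.18 for shCdk8-1 and -0.05 for shCdk8-2, beside 0.01 over all genes for both.

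Of 24 other V-ATPase subunits, 19 were tested. In shCdk8-1, 1 rose and 9 fell, and in shCdk8-2, 2 rose and 9 fell, none by more than 2-fold. The other a subunits are the isoforms that take the place of a4 in other membranes: Atp6v0a1 fell by 0.53 in shCdk8-1 and fell by 0.63 in shCdk8-2, Atp6v0a2 fell by 0.19 and fell by 0.26, and Tcirg1 (a3) was at 0.01 (adjusted p = 0.947) and 0.10 (adjusted p = 0.292). The subunits that accompany a4 in kidney cells, Atp6v1b1, Atp6v0d2 and Atp6v1g3, had at most 2 counts in any library. The median of the 19 was -0.14 for shCdk8-1 and -0.10 for shCdk8-2. Thus Atp6v0a4 rose while no other subunit rose beyond 0.26.

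Among the 7 other genes of the MYPT family and the catalytic subunits of protein phosphatase 1, all tested, 1 rose and 5 fell in shCdk8-1, and 1 rose and 2 fell in shCdk8-2, none by more than 2-fold. Ppp1r16a, the closest relative of Ppp1r16b, was at -0.21 (adjusted p = 5.25e-04) and -0.12 (adjusted p = 0.0321). Their log2 differences between SnxB and DMSO in cntrl lay between -0.03 and 0.11, and none passed the test in any line.

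Of 10 other genes of the thrombospondin list, 7 were tested. Thbs1, the other vessel-inhibiting thrombospondin, had 0 to 2 counts in each cntrl library, 109 to 138 in the shCdk8-1 libraries and 9 to 28 in the shCdk8-2 libraries, and was called in both lines (adjusted p = 3.08e-15 and 4.34e-08). Mmp2, a metalloprotease cleared together with thrombospondin-2 by cells, rose by 1.57 (adjusted p = 5.39e-17) and 1.51 (adjusted p = 1.57e-16), and in cntrl cells it rose with SnxB by 0.43 (adjusted p = 9.08e-04). Thbs3 rose by 0.79 and 0.81. The receptors of the list went the other way, with Cd47 at -0.40 and -0.29, Lrp1 at -0.93 and -0.75, Itgav at -0.41 and -0.23 and Itgb3 at -1.37 and -0.46, all of which fell at the adjusted p. The median was -0.40 and -0.23, also with Thbs1 placed at the floor of 3 counts in cntrl.

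Of 15 other genes of the SLAM list, 6 were tested. Cd48, the ligand of 2B4, had at most 7 counts in any library, and the adaptor Sh2d1a had none. The phosphatases of the pathway did not move together. Inpp5d (SHIP1) fell by 3.16 in shCdk8-1 (adjusted p = 8.08e-22) and fell by 2.38 in shCdk8-2 (adjusted p = 4.12e-20). Ptpn6 (SHP-1) rose by 0.47 and 0.86, and Ptpn11 was at 0.10 (edgeR quasi-likelihood adjusted p = 0.00313) and -0.03 (adjusted p = 0.388). The kinase Fyn fell by 0.78 and fell by 0.60. Slamf9 fell from 4 to 17 counts in the cntrl libraries to 0 to 5 in the shCdk8-1 and 0 to 3 in the shCdk8-2 libraries (adjusted p = 1.08e-04 and 6.97e-06). The median of the 6 was -0.34 and -0.31, also with Slamf9 at the floor.

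**Figure D4:**
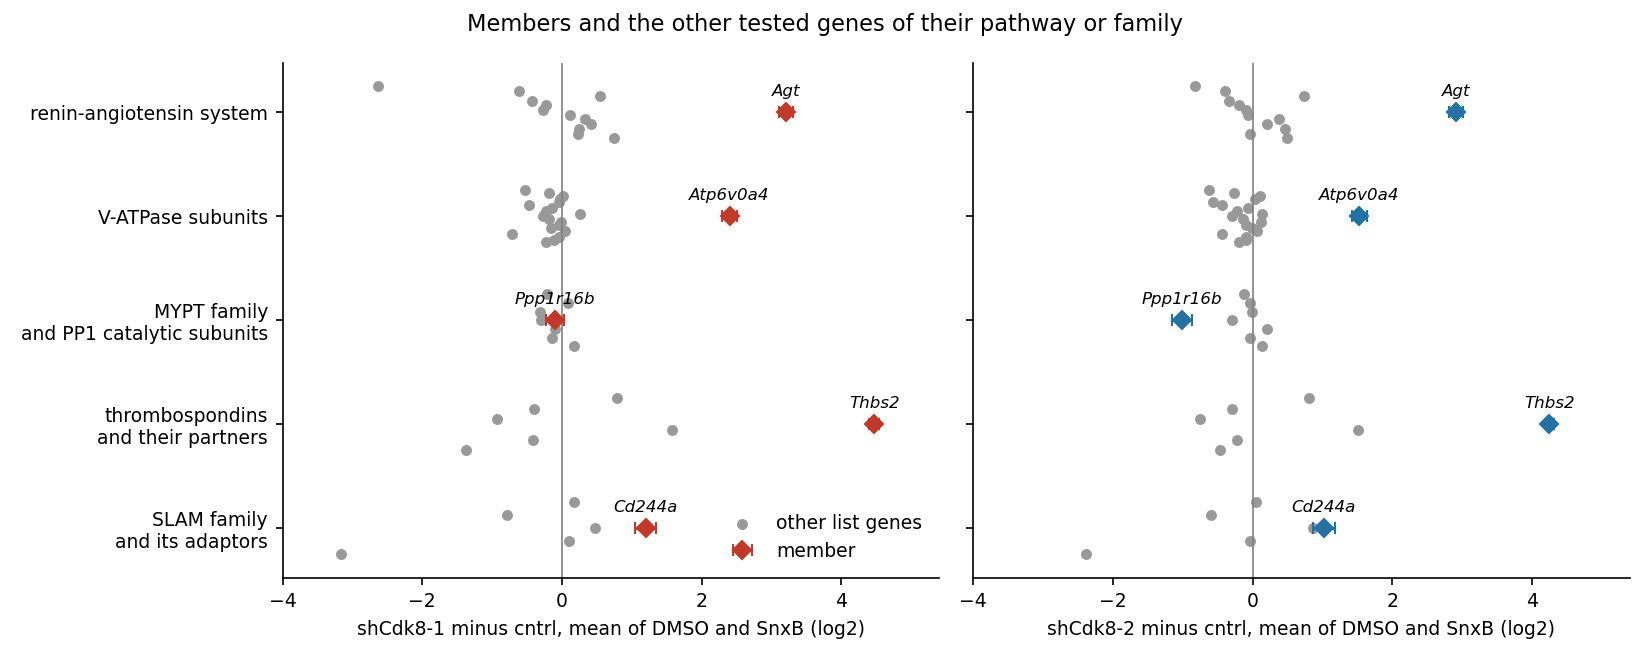
Log2 difference from cntrl, averaged over DMSO and SnxB, of each member (diamond, with 1 standard error) and of the other tested genes of its list (grey points) in shCdk8-1 (left) and shCdk8-2 (right). Thbs1 and Slamf9, with at most 3 counts in every library of a line, are left out. Agt and Atp6v0a4 lie to the right of the other genes of their list, and Thbs2 to the right of those shown, which leave out Thbs1, a gene with 0 to 2 counts in cntrl and 109 to 138 in shCdk8-1.

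The dependence of the SnxB effect on the line was tested in the same lists. Of the 50 other list genes tested, none passed the adjusted p for shCdk8-1 or shCdk8-2 with edgeR's quasi-likelihood test or with DESeq2, and 1 passed in each with edgeR's likelihood ratio test. By the quasi-likelihood test only 0.305% and 0.0548% of all genes passed, so none among 50 says little about the lists. At an unadjusted p under 0.05 there were 6 and 3 of the 50, beside 1264 and 748 of all 12772 genes. In cntrl cells 6 of the 50 passed the adjusted p for SnxB, as did 5.54% of all genes: Mmp2, Anpep, Thop1 and Itgb3 rose, and Ace and Atp6v0a1 fell. Of these, Mmp2 and Atp6v0a1 (-0.25, adjusted p = 0.00559) passed under every alternative run. Ace (-1.67, adjusted p = 0.0102) lost the call without cntrl SnxB replicate 2 (-1.31) and Thop1 (0.21, adjusted p = 0.00783) without cntrl SnxB replicate 3 (0.17). Anpep (0.26, adjusted p = 0.0264) lost it without cntrl DMSO replicate 1 (0.26), cntrl DMSO replicate 2 (0.24) or cntrl SnxB replicate 1 (0.18). Itgb3 (0.27, adjusted p = 0.0374) lost it in 6 of 26 alternatives, at 0.18 to 0.28.

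Genes near the members were examined for the same behavior. Within 200 kb of the 5 members lie 63 annotated genes, 22 of which were tested. Only Pgbd5, which encodes a transposase-derived protein and ends 116.9 kb from Agt on the same strand of chromosome 8 (124369049 to 124439658), responded differently to SnxB between lines: its log2 difference between effects was -0.35 for shCdk8-1 (standard error 0.0556, adjusted p = 0.00666) and -0.31 for shCdk8-2 (standard error 0.0557, adjusted p = 0.0407). The second of these calls was lost in 24 of 30 alternatives, with adjusted p from 0.0127 to 0.313 over all of them, and the first in 0 of 30.

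Pgbd5 was at 33.7, 33.7 and 32.8 CPM in cntrl DMSO and 47.6, 47.9 and 50 CPM in cntrl SnxB. In shCdk8-1 cells it was at 77.8, 77.8 and 80.1 CPM in DMSO and 90.9, 86.6 and 91.3 CPM in SnxB. In shCdk8-2 cells it was at 76.3, 71.7 and 72.3 CPM in DMSO and 87.9, 85.6 and 84.9 CPM in SnxB. The order of cntrl DMSO, cntrl SnxB, knockdown DMSO and knockdown SnxB was that of Agt, over a smaller range. It rose with SnxB by 0.54 in cntrl (adjusted p = 6.67e-08), 0.19 in shCdk8-1 (adjusted p = 0.00849) and 0.23 in shCdk8-2 (adjusted p = 0.00123). Cog2, which lies 4.5 kb from Agt, and 2310022B05Rik, at 66 kb, were at 0.13 (adjusted p = 0.12) and 0.01 (adjusted p = 0.967) with SnxB in cntrl. Both lie nearer to Agt than Pgbd5 does, and neither passed the test.

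**Figure D5:**
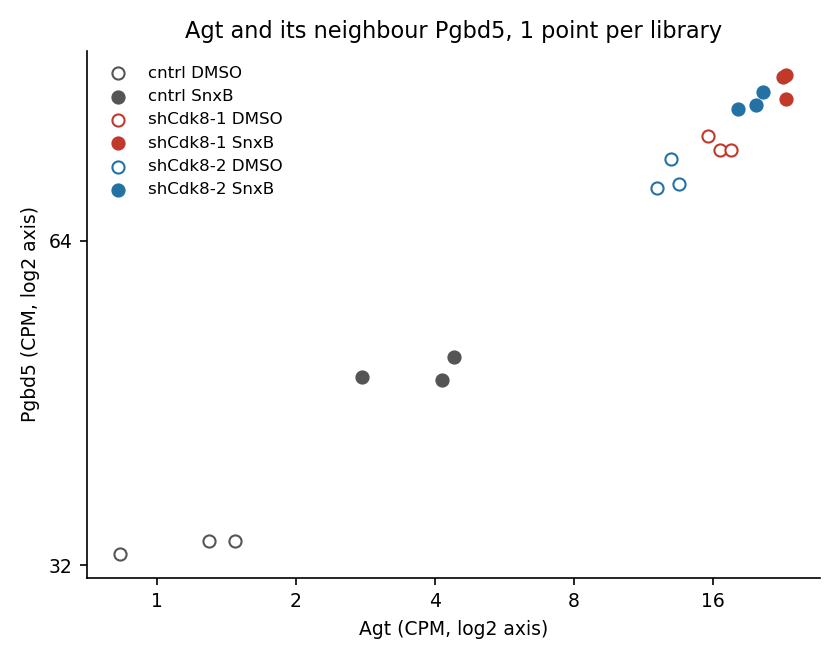
CPM of Pgbd5 against CPM of Agt, 1 point per library, both axes on a log2 scale, with DMSO open and SnxB filled. The 6 cntrl libraries lie at the lower left, those in SnxB above those in DMSO, and the 12 knockdown libraries at the upper right.

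Of the other neighbors, Trim24, 82.2 kb from Atp6v0a4, rose with SnxB in cntrl by 0.39 (adjusted p = 1.01e-04), and its effect did not pass the test of a difference between lines (-0.15 for both knockdown lines, adjusted p = 0.522 and 0.858). D630045J12Rik, the gene that overlaps Atp6v0a4, was at 0.03 (adjusted p = 0.679) and 0.12 (adjusted p = 0.1) between lines, and Ly9 at 0.17 (adjusted p = 0.00329) and 0.05 (adjusted p = 0.35). Neither was near the differences of Atp6v0a4 and Cd244a. The 4 tested genes near Ppp1r16b and the gene near Thbs2 did not pass for SnxB in any line. Between lines, 13 of the 22 neighbors passed the adjusted p for shCdk8-1 and 13 for shCdk8-2, beside 69% and 66.9% of all genes. In each line 2 of the 22 were also past 2-fold, beside 12.7% and 10.8% of all genes: Pgbd5 and Capn9 in shCdk8-1, and Capn9 and Fam89a in shCdk8-2. All 3 lie near Agt, but they did not move in the same direction. Pgbd5 (1.06 in shCdk8-1) and Capn9 (2.55 and 2.22) were higher than in cntrl, and Fam89a was lower. Capn9 was at means of 0.128 CPM in cntrl DMSO and 0.1 CPM in cntrl SnxB, under the level of 3 counts. Fam89a (-1.01) fell under 2-fold in 8 of 30 alternatives.

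The genes with the pattern most like that of each member were ranked over 11181 genes by Pearson's r of log2 CPM over the 18 libraries, which share the 3 lines and 2 treatments. Pgbd5 was first of all genes for Agt (r = 0.993), ahead of Pfkp, a glycolytic enzyme (0.986), and Tbc1d4 (0.982), and it was still first after the mean of each line was subtracted (0.946). For Atp6v0a4 the nearest was Scarb1, the HDL receptor (0.984), whose cntrl mean was 159 CPM in DMSO and 191 CPM in SnxB against 224 to 243 CPM in shCdk8-1. For Thbs2 it was Tmeff1 (0.995, but rank 904 by Spearman's rho of 0.825), from 5.97 CPM in cntrl DMSO to 52.7 CPM in shCdk8-1 DMSO. Cd244a was nearest to B4galt1 (0.910), whose group means ran only from 237 to 262 CPM. Ppp1r16b had no gene above 0.823 (Gadd45a).

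Within lines, where r was taken after each line's mean was subtracted, the nearest genes were Irf2bpl for Atp6v0a4 (0.953), Tmeff1 for Thbs2 (0.901), Rcor2 for Cd244a (0.837) and Tgfb2 for Ppp1r16b (0.847). Tgfb2 fell from 14.5 to 13.1 CPM with SnxB in cntrl, a log2 difference of -0.15, and was at 0.43 in shCdk8-1 and 0.22 in shCdk8-2. By Spearman's rho over the 18 libraries, Pgbd5 stayed first for Agt and Scarb1 for Atp6v0a4, whereas B4galt1 was at rank 13 for Cd244a and Gadd45a at rank 4 for Ppp1r16b. Within lines, Tgfb2 stayed first for Ppp1r16b, and Irf2bpl was at rank 2, Pgbd5 at rank 4, Rcor2 at rank 11 and Tmeff1 at rank 318 for their members. Among the members, Agt and Atp6v0a4 followed each other within lines (r = 0.91), as did Atp6v0a4 and Thbs2 (0.85), whereas Ppp1r16b was at -0.54 with Cd244a and 0.18 with Agt. The members were chosen on these same libraries, so these values are a description.

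Markers of hepatocytes, natural killer and T cells and kidney intercalated cells, in which Agt, Cd244a and Atp6v0a4 are best known, were near 0. Of 4 hepatocyte markers, all had at most 3 counts in every library, and Ttr and Serpina1a had none. Of 10 markers of natural killer and T cells, 9 had at most 3 counts in every library, Ncr1, Gzmb and Cd8a had none, and the summed level was 0.217 to 0.554 CPM in cntrl DMSO, 0.41 to 0.557 CPM in cntrl SnxB and at most 0.108 CPM in the knockdown lines. The remaining marker, Ptprc, reached 10 counts. Cd244a was higher in the knockdown lines, where this sum was lower, but the sum lies near the floor and its part in Cd244a was not tested. Of 4 markers of kidney intercalated cells, 3 had at most 3 counts and Foxi1 had none. The 3 B cell markers summed to at most 0.285 CPM, and the 6 myeloid markers to 7.26 to 7.69 CPM in cntrl DMSO and 3.31 to 5.04 CPM in the knockdown lines in DMSO.

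The 4 endothelial markers, given because Ppp1r16b is best known from endothelial cells, differed in direction. Pecam1 went from a mean of 0.286 CPM in cntrl DMSO to 14.3 CPM in shCdk8-1 and 5.85 CPM in shCdk8-2 in DMSO, and Cdh5 from 4.34 to 0.206 and 0.595 CPM. The summed level was 4.95 to 5.61 CPM in cntrl DMSO, 13.8 to 15.4 CPM in shCdk8-1 DMSO and 6.43 to 6.92 CPM in shCdk8-2 DMSO. The 6 epithelial markers summed to 0.163 to 0.441 CPM in cntrl DMSO, 8.08 to 8.95 CPM in shCdk8-1 and 12.4 to 14.3 CPM in shCdk8-2, most of it Krt8, and the 6 mesenchymal markers to 4811 to 4981, 4093 to 4267 and 4449 to 4574 CPM. The part of these differences between lines in the levels of the members was not tested.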

How the data were processed

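RNA-seq libraries of 3 E0771 lines in DMSO or SnxB were analysed (6 groups, 3 libraries each). Single-end reads went through Trimmomatic and STAR (GRCm38, GENCODE M13), and the authors deposited raw read counts per gene from featureCounts 1.5.1, run on exons with reverse strand and without multi-mapping or ambiguous reads. Symbols for 50376 of 50686 genes came from GENCODE M21. Members and gene lists were chosen with earlier results of these data known.

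Counts were filtered with filterByExpr (minimum count 10, minimum total 15), scaled by TMM and fitted over all 18 libraries with edgeR 4.0.16 in R 4.3.3 (glmQLFit, glmQLFTest), with Benjamini-Hochberg adjustment over all 12772 genes. Genes were called at an adjusted p under 0.05 and more than 2-fold, the thresholds in the study's methods. Standard errors were derived from the F statistic, and 95% intervals used 12 residual degrees of freedom. Named genes were the members, Cdk8, Cdk19, the listed genes, tested genes within 200 kb of a member, and the 3 genes most like each member among those with a mean of at least 1 CPM. Ccl7 and Kctd14 were named after their values were seen. Alternatives used DESeq2 1.42.0, other normalizations, filters, tests and thresholds, a replicate block and libraries left out. The code was tested on simulated data. Promoters for all 5 members were matched by symbol in RefSeq. Figures were drawn with matplotlib 3.10.9.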

Additional observations from a re-analysis of the deposited data

Results flagged for a closer look

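Pgbd5, a neighbor of Agt, was the only one of 71 genes in the lists or near the members whose response to SnxB differed between lines by edgeR's quasi-likelihood interaction test. Its log2 difference between effects was -0.35 for shCdk8-1 (adjusted p = 0.00666) and -0.31 for shCdk8-2 (adjusted p = 0.0407), both under 2-fold. The shCdk8-2 call was lost in 24 of 30 alternatives. Both subtract the same cntrl libraries.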

How the results depend on the processing

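Of 450 alternative fits of the 15 tested differences between lines in the 5 members, 437 left the call as it was, 12 took it under 2-fold (Cd244a and Ppp1r16b in shCdk8-2), 1 took Ppp1r16b past it between the knockdown lines, and 0 turned a direction. Library totals in place of TMM gave -0.97 for Ppp1r16b in shCdk8-2, and a prior count of 2 gave -0.96 for it and 0.94 for Cd244a. Without the fold threshold the lines differed from cntrl in 8813 genes (shCdk8-1) and 8540 genes (shCdk8-2), and from each other in 4399. The dependence of the SnxB effect on shCdk8-1 was called in 5 genes, and in 9 by the likelihood ratio test, 15 without a filter, 3 with only the 2 lines fitted, 3 at an adjusted p under 0.01, 39 without the fold threshold and 3 to 5 with a library left out. DESeq2 called 5. For shCdk8-2 it was called in 2 genes, and in 9 without a filter, 1 with only the 2 lines fitted, 0 at an adjusted p under 0.01, 7 without the fold threshold and 0 to 4 with libraries left out. The unadjusted p was under 0.05 in 748 of 12772 genes, and in at least 533 in each of the 9 leave-out fits without a call, while DESeq2 called 3. With no effect at all, a share of 0.05 of genes would fall under 0.05, so no remaining effect is read from these counts. SnxB called 14 genes in shCdk8-1 (8 to 16 with libraries left out) and 16 in shCdk8-2 (8 to 19). Under a replicate block, the calls for the dependence on the line stayed at 5 and 2, and no call of a member was changed. Same-numbered libraries deviated together by no consistent amount (correlations of -0.184 to 0.247), so the numbers were not taken to pair them. The cntrl DMSO counts, from 7 for Cd244a, limit the precision.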
